A study of Xenopus laevis with 2 samples.

Results

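The mRNAs described here code for the machinery that brings secreted and membrane proteins into the endoplasmic reticulum (ER): the signal recognition particle (SRP) and its receptor, the Sec61 channel, Sec62 and Sec63, the translocon-associated protein complex (TRAP), signal peptidase and the oligosaccharyltransferase (OST). They were picked by gene symbol, with a rule that uses no measured value, though the group was chosen with earlier results of these data known. The rule found 29 genes under 49 gene names, of 49349 gene names in all. The data came from axons of retinal ganglion cells (RGCs), the neurons that connect the eye to the brain, of embryonic Xenopus laevis with no treatment or genetic change given in the labels. Whole eyes of stage 33/34 to 37/38 embryos were cultured, 500 pooled for each of 2 replicate libraries, for 48 hours on filters with 1 µm pores that let axons through, and the cell bodies were then removed. Both libraries were made from PCR-amplified cDNA, and no library of cell bodies or of another tissue was analysed here, so the values cannot say whether an mRNA was enriched in axons.

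In animal cells, SRP binds the signal sequence of a protein as it leaves the ribosome, slows elongation and docks the ribosome at the ER by way of the SRP receptor. The nascent chain then passes into the Sec61 channel, around which TRAP and OST are placed. Signal peptidase cuts the signal sequence off, and OST adds N-linked sugars. Growing axons hold ER, and receptors and adhesion proteins of the axon surface are made through this route. X. laevis is allotetraploid, so many genes have 2 homeologs, which the gene names mark by the endings L and S.

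The mRNA level was given as FPKM, a fragment count divided by transcript length and by library size, so levels of different genes are compared per length. A gene name was called detected when it exceeded 1 FPKM in both libraries, the limit used in the study. The files list 51037 rows per library, and 3148 names in replicate 1 and 2873 in replicate 2 had a value above 0. FPKM holds no read counts, so the depth of either library is unknown. A relative depth was estimated from the steps between low values. Of 621 names above 0 and under 5 FPKM in both libraries, 44 shared the most common ratio between libraries. If these stand for equal reads in both libraries, replicate 1 was 3.71 times as deep as replicate 2. Without read counts this could not be checked. A value of 0 can be a failed estimate. Of the genes of general use looked up after the values were seen, 9 were listed, while eef2, ubb and ubc matched no name. Of the 9, 3 (pgk1, tbp and polr2a) were at 0 in both libraries under every name, so a gene at 0 is described only as listed at 0. Of 12 markers of RGCs and axons, stmn2 and gap43 were detected and the other 10 were listed at 0, among them isl2, pou4f1, tubb3 and nefm. The summed level of this RGC and axon list was 546 and 841 FPKM in replicates 1 and 2. Nearly all of it came from stmn2, with 543 and 838 FPKM, while gap43 had 3.05 and 3.11 FPKM. Of 26 listed markers of other cells, 5 were detected. They were pcna of proliferating cells (150 and 74.3 FPKM in replicates 1 and 2), dct of pigment epithelium (86.8 and 63.9 FPKM), glul and rlbp1 of Müller glia and col1a1 of connective tissue. The other listed markers of these cell types did not pass the limit. For proliferating cells these were mki67 and top2a, and for pigment epithelium tyr, pmel and rpe65. For Müller glia they were slc1a3 and vim, and for connective tissue col1a2, col3a1 and pdgfra (0.946 and 11.4 FPKM). The summed level of the list for other cells was 291 and 244 FPKM in replicates 1 and 2, and 16 of its genes, among them rho, crx, tyr, rpe65, cryaa and hba1, were listed at 0. The paper reports that its axon material was pure by RT-PCR and by staining for soma and nuclear factors. The part of other cells in the values below was not tested here.

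Of the translocon and signal recognition genes, 11 of 29 were detected, under 14 of 49 gene names (28.6%), against 4.39% of all gene names. Among names of the file that are not only numbered gene models, the share was 28.6% for these genes and 8.48% for all. The detected genes were rpn1, sec61b, sec61a1, stt3b, srp68, ssr2, ssr3, spcs3, ssr4, srp9 and ssr1, in order of their average level with homeologs summed. Another 31 names (63.3%) were listed at 0 in both libraries, against 93.2% of all gene names, and 4 names had a value in at least one library without passing the limit in both. Of the 18 names with any value, 77.8% passed the limit, against 65.0% of the 3336 names with any value in the whole table. The 14 detected names had a median of 67.9 and 40.2 FPKM in replicates 1 and 2, beside medians of 27.3 and 31.0 FPKM over all 2168 detected names. At the upper end the shares were alike: 3 of its 14 detected names (21.4%) were over 100 FPKM in both libraries, as were 465 of all detected names (21.4%). In sum, the group took 0.206% of the FPKM in replicate 1 and 0.287% in replicate 2. It held 14 of the 2168 detected names. Its 0.0993% of all gene names is no measure to set beside the FPKM, since 93.2% of all names were listed at 0.

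**Figure D1:**
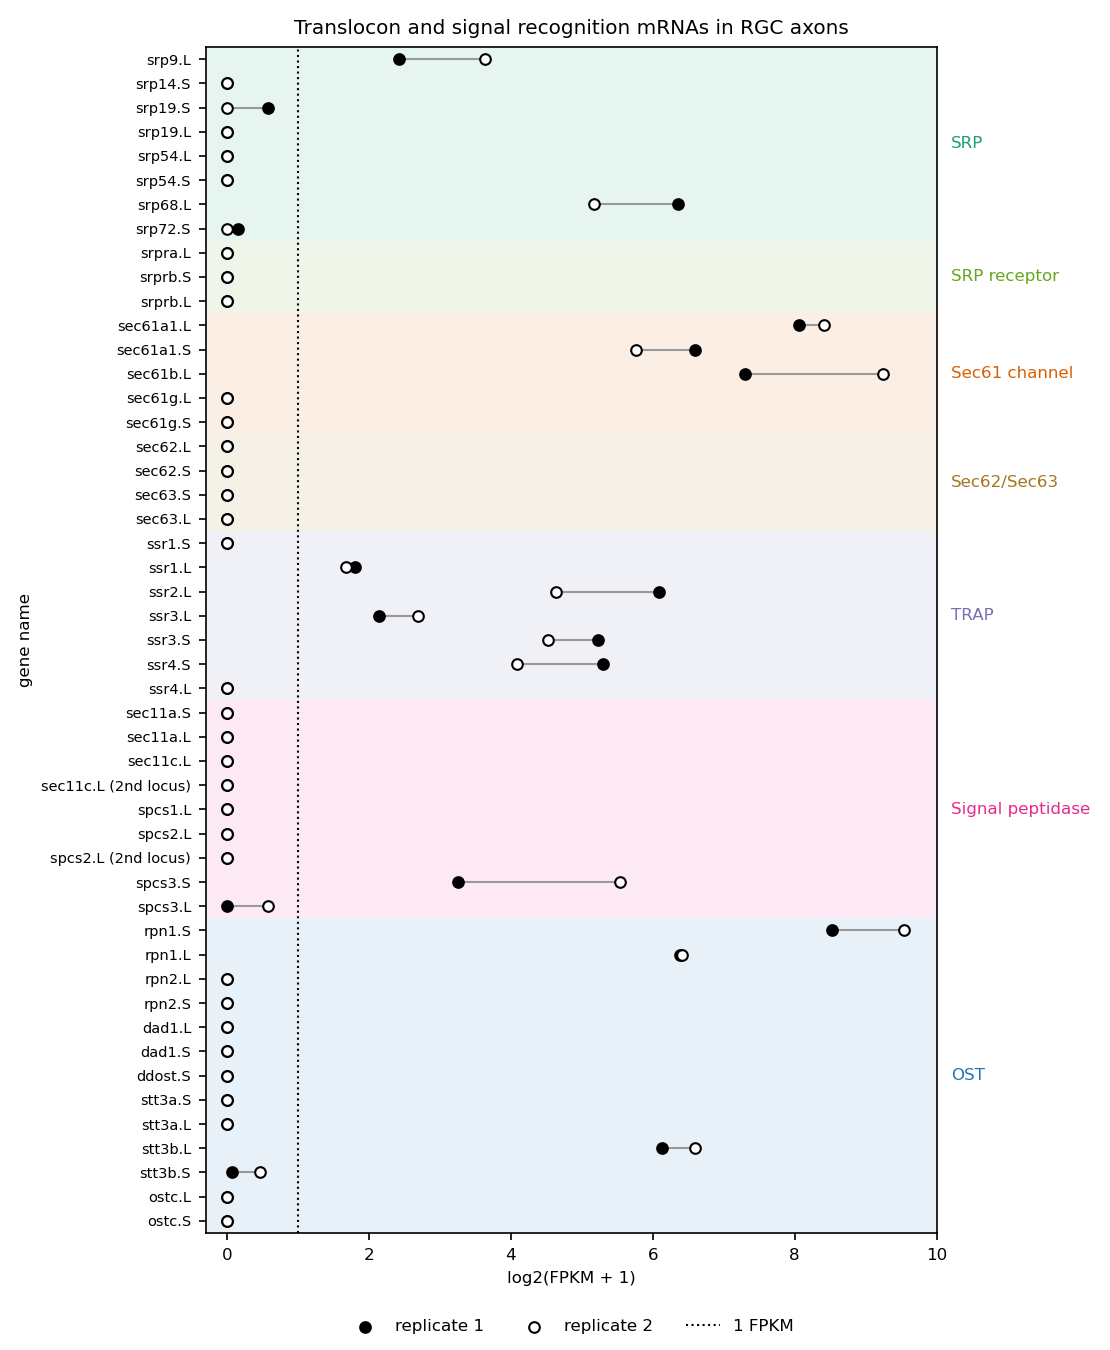
mRNA level of the 49 gene names in RGC axons, on a log2(FPKM + 1) axis, with 1 row per name, filled points for replicate 1, open points for replicate 2 and shading by complex; the dotted line marks 1 FPKM. Points over the line in both libraries are seen for 14 names, in SRP, Sec61, TRAP, signal peptidase and OST, while all names of the SRP receptor and of Sec62 and Sec63 lie at 0.

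The complexes differed in how many of their genes were found. All 4 genes of TRAP were detected, 2 of 3 genes of the Sec61 channel, 2 of 6 of SRP, 2 of 7 of OST and 1 of 5 of signal peptidase. For the SRP receptor (2 genes) and for Sec62 and Sec63, every name was listed at 0 in both libraries. The summed level was highest for the Sec61 channel, with 520 and 997 FPKM in replicates 1 and 2, and for OST, with 517 and 924 FPKM. These complexes overlapped in their levels and stood above the others in both libraries. TRAP had 148 and 69.5 FPKM, SRP 86.1 and 46.4 FPKM and signal peptidase 8.50 and 45.8 FPKM. TRAP and SRP were lower in replicate 2 and the other detected complexes higher. The genes rpn1, sec61a1 and sec61b together held 75.7% of the group's summed FPKM in replicate 1 and 87.6% in replicate 2.

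SRP first meets the nascent chain, and mRNA for 2 of its 6 subunits was detected, srp68 at a middle level of the group and srp9 near its lower end. The srp68 gene codes for a large subunit that, paired with SRP72, holds the signal-binding domain of the particle together. Its L homeolog, at positions 37217619 to 37235353 of chromosome 9_10L (X. laevis v9.2, the build of all positions given here), had 81.1 and 35.0 FPKM in replicates 1 and 2. The gene srp9 codes for a member of the SRP9/SRP14 pair, which slows elongation. For srp9.L (chromosome 5L, 17056370 to 17064293) the values were 4.36 and 11.4 FPKM. Both genes were thus found in both libraries, with srp68 above srp9 in each and the libraries 2.32-fold and 2.62-fold apart. The partners of both were not detected: srp14.S was listed at 0 in both libraries, and srp72.S had 0.111 FPKM in replicate 1 and was listed at 0 in replicate 2. The same held for srp19, which helps to assemble the particle on its RNA, with 0.488 FPKM in replicate 1 for the S name and 0 elsewhere. Both names of srp54, the GTPase that binds the signal sequence itself, were listed at 0, as were srpra.L, srprb.L and srprb.S of the receptor. A numbered gene model that the RefSeq table for the assembly Xenopus_laevis_v10.1 names srp9.S lay outside the symbol rule. It had 4.44 and 5.49 FPKM in replicates 1 and 2. Thus srp9 was found under both homeologs, at a similar level in replicate 1 and with L higher in replicate 2. The models that table names srp68.S and ddost.L were listed at 0.

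The Sec61 channel had mRNA for its pore and for its β subunit. The pore-forming α subunit is encoded by sec61a1, the gene whose protein lines the path of the nascent chain. The L homeolog (chromosome 4L, 129674075 to 129686282) had 267 and 339 FPKM in replicates 1 and 2. The S homeolog (chromosome 4S, 107684628 to 107696700) had 96.1 and 53.3 FPKM. Summed, sec61a1 had 363 and 392 FPKM, a closer match between libraries than for either homeolog of its own, since L was higher and S lower in replicate 2. The β subunit, a small tail-anchored protein at the side of the channel, is encoded by sec61b. Its L name (chromosome 6L, 63648093 to 63653110), the only one matched, had 157 and 605 FPKM in replicates 1 and 2. This 3.85-fold gap between the libraries is wider than the distance from sec61b to sec61a1, so the order of these genes cannot be told. The γ subunit, sec61g, which clamps the channel, was listed at 0 in both libraries under its L name and at both loci of its S name, on chromosomes 6S and 5S. Sec62 and Sec63, membrane proteins that help short and post-translationally imported chains, were likewise listed at 0 under all 4 names.

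TRAP sits beside the channel and helps the insertion of some signal sequences. Its genes were detected in full, but at different levels. For the β subunit, ssr2.L (listed on chromosome 8S, 96411837 to 96422913) had 66.9 and 23.8 FPKM in replicates 1 and 2. For the γ subunit, ssr3.S (chromosome 5S, 97118152 to 97125470) had 36.6 and 22.1 FPKM, and ssr3.L (chromosome 5L, 113345229 to 113352381) 3.42 and 5.44 FPKM. For the δ subunit, ssr4.S (chromosome 8S, 38246665 to 38269458) had 38.3 and 16.0 FPKM, and ssr4.L was listed at 0. These 3 genes overlapped in level, and the main name of each was higher in replicate 1. The α subunit lay below them in both libraries: ssr1.L (chromosome 6L, 87209067 to 87219452) had 2.48 and 2.18 FPKM, and ssr1.S was listed at 0. Its values lay close to the limit. The value of ssr4 rests on a row whose gene number the RefSeq table lists under the same symbol, ssr4.S, as a long non-coding RNA, while ssr4.L is listed there as protein-coding. Whether the ssr4.S transcripts of these axons code for the δ subunit was not tested.

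Of the signal peptidase, spcs3 alone was detected. It codes for a non-catalytic subunit that the enzyme needs in yeast. The S name (chromosome 1S, 36575835 to 36593743) had 8.50 and 45.3 FPKM in replicates 1 and 2, a 5.33-fold difference and the widest between the libraries among the 14 detected names. For spcs3.L, replicate 1 was listed at 0 and replicate 2 had 0.489 FPKM. The catalytic subunits sec11a and sec11c, and the further subunits spcs1 and spcs2, were listed at 0 in both libraries under all 7 names.

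OST contributed the highest name of the group. Ribophorin I, encoded by rpn1, lies next to the channel and presents substrates to the enzyme. For rpn1.S (chromosome 4S, 108327858 to 108339861) the level was 366 and 743 FPKM in replicates 1 and 2, which placed it 213th of the 2168 detected names by average. For rpn1.L (chromosome 4L, 130443964 to 130460746) it was 82.3 and 84.1 FPKM, nearly the same in both libraries. The catalytic subunit exists in 2 forms in mammals: STT3A works with the translocon as the chain enters, and STT3B acts on sites that were skipped. Here stt3b.L (chromosome 6L, 47809426 to 47851724) had 68.9 and 96.2 FPKM, whereas both names of stt3a were listed at 0 in both libraries. The S name of stt3b had 0.0516 and 0.384 FPKM. If the estimated relative depth holds, this is 0.499 reads in replicate 1 for each read in replicate 2. That would be close to 1 read against 2. The remaining subunits were listed at 0 in both libraries: rpn2, dad1 and ostc under both of their names and ddost under its S name. In mammals OSTC links the STT3A form to the channel, while RPN2, DAD1 and DDOST belong to both forms.

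Ordered by their average level with homeologs summed, the 11 detected genes fell into steps. Genes are said to overlap here when the ranges of their values over both libraries do. At the top were rpn1 (448 and 827 FPKM in replicates 1 and 2), sec61b (157 and 605 FPKM) and sec61a1 (363 and 392 FPKM). By range, rpn1 overlapped sec61b, and sec61b overlapped sec61a1. Within each library rpn1 was nonetheless the highest of them, while the order of sec61b and sec61a1 changed between libraries. A gap followed, since the lower value of sec61a1 lay above both values of stt3b, 69.0 and 96.6 FPKM. From stt3b through srp68, ssr2, ssr3, spcs3 and ssr4, each gene overlapped the next. Below ssr4, srp9 (L name only, 4.36 and 11.4 FPKM) and then ssr1 were each lower than their neighbour in both libraries. The model that the RefSeq table names srp9.S (4.44 and 5.49 FPKM) lay outside the symbol rule and is not in this sum. With it added, the replicate 2 value of srp9 would pass that of ssr4 (16.0 FPKM). The step between ssr4 and srp9 thus holds for the matched names only. With 2 libraries, no test was made between genes.

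**Figure D2:**
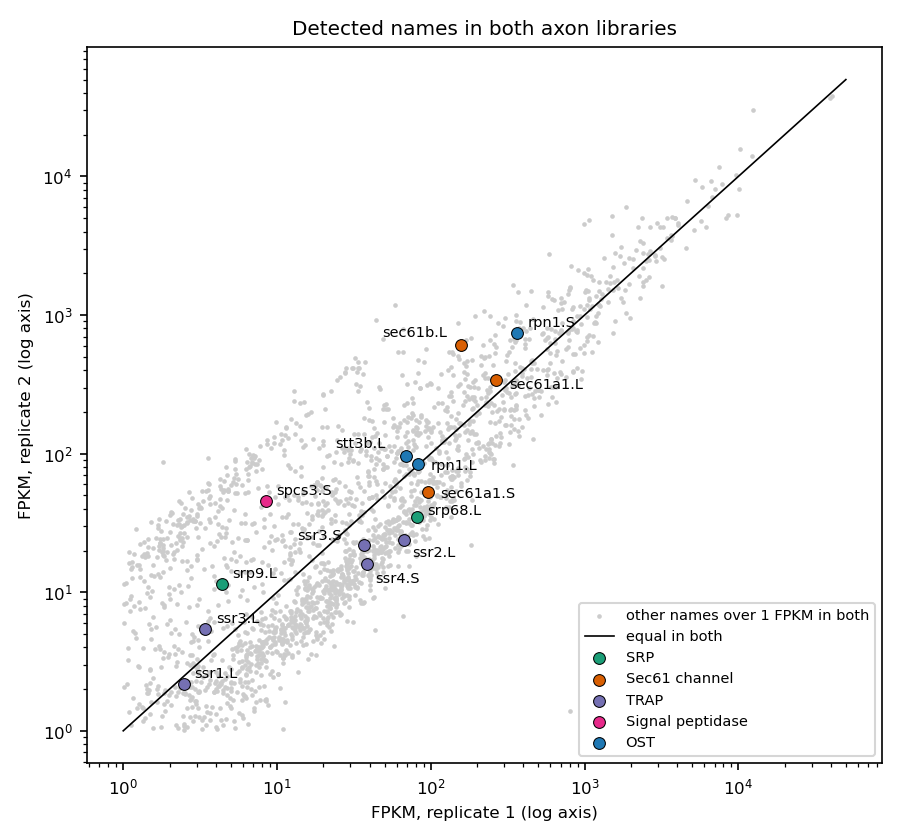
FPKM in replicate 1 (x) and replicate 2 (y), both on log axes, for all gene names over 1 FPKM in both libraries (gray) and for the 14 translocon and signal recognition names (colored by complex); the line marks equal values. The names rpn1.L, ssr1.L, sec61a1.L and stt3b.L lie near the line, sec61b.L and spcs3.S lie highest above it, and ssr2.L, ssr4.S and srp68.L below it.

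Between the libraries, the 14 detected names differed by a median of 0.93 on the log2(FPKM + 1) scale, against 0.98 over all detected names. Of the 14, 8 were higher in replicate 2 (57.1%), against 45.8% of all detected names. Only spcs3.S was more than 4-fold apart, against 15.5% of all detected names. The 2168 detected names did not scatter evenly around equality. Their log2 difference, replicate 2 minus replicate 1, was between -2 and -0.5 for 41.0% and between 3 and 4 for 7.89%. Of the members, 5 lay in the lower band (srp68.L, sec61a1.S, ssr2.L, ssr3.S and ssr4.S) and 0 in the upper. The order of the 14 names was similar in both libraries (Spearman rho 0.91, Pearson r 0.87 on the log2 scale, n = 14 names), beside 0.78 and 0.84 over all 2168 detected names. Names share their libraries and are not replicates, so no p-value is given.

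Homeologs of the same gene differed in level, and the direction was the same in both libraries for each pair. The share of all pairs with the same direction is not given here, so whether this is particular to these genes was not tested. A pair was compared where both an L and an S name are listed and at least one was over 10 FPKM in a library, which 6 genes met. Numbered models without such a name, among them those the RefSeq table names srp9.S and srp68.S, were not paired. More mRNA was assigned to the S name for rpn1, ssr3, ssr4 and spcs3 and to the L name for sec61a1 and stt3b. For rpn1 the S name took 81.6% of the pair's FPKM in replicate 1 and 89.8% in replicate 2, and for sec61a1 the L name took 73.5% and 86.4%. For stt3b the L name took 99.9% and 99.6%. The pairs of stt3b and ssr4, 2 of 6 (33.3%), were more than 10-fold apart in both libraries on FPKM + 1, against 52.4% of the 776 pairs in the whole table. The call for ssr4 rests on ssr4.L being listed at 0 in both libraries, which may be a failed estimate, so that gap may not be one of expression. For spcs3 the S name was over that fold in replicate 2. In replicate 1 it could not be, since 8.50 FPKM against 0 stays under 10-fold on FPKM + 1. Homeologs share much of their sequence, and a read that fits both can be placed on either, which leaves each split uncertain.

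**Figure D3:**
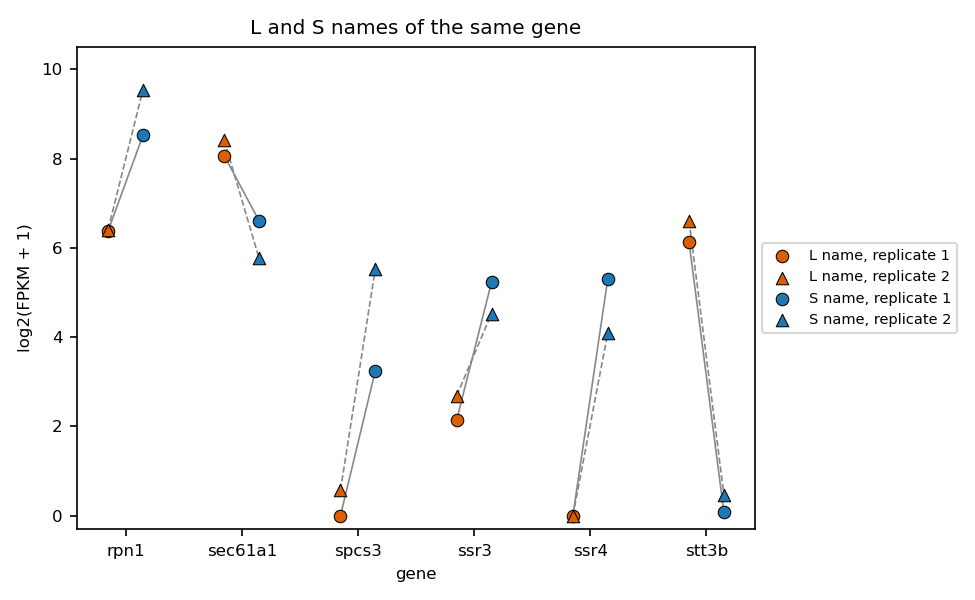
Level of the L name (orange, left) and the S name (blue, right) of 6 genes, on a log2(FPKM + 1) axis, with circles and solid lines for replicate 1 and triangles and dashed lines for replicate 2. In each pair both libraries place the same homeolog higher, and the lines are steepest for stt3b and ssr4 in replicate 1 and for stt3b and spcs3 in replicate 2.

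Some names of the group stand for more than a plain symbol. Of the 49 names, 18 hold several symbols in the same row, 5 of them detected. For 13 of the 18 the second symbol is a gene number that the RefSeq table pairs with the same symbol, so these rows name a gene by 2 labels and not 2 genes. The endings did not always fit the listed chromosome. Here ssr2.L is listed on 8S. The names sec11c.L and spcs2.L each have a row on an S chromosome (1S and 2S) besides the row on the L chromosome. The RefSeq table lists ssr2.S on 8S with ssr2.L as a synonym, and sec11c.S on 1S with sec11c.L as a synonym. It lists spcs2.S on 2S. The row called ssr2.L may thus be the S homeolog under another name. The span of the locus, from the files, was 12.04 kb at the median for detected rows (5.02 to 42.3 kb, 14 rows) and 16.4 kb for the others (4.02 to 931 kb, 36 rows). The ranges overlapped, and both short loci, such as sec61b.L with 5.02 kb, and long ones, such as stt3b.L with 42.3 kb, were among the detected. The 931 kb are those of the spcs2.L row on 2S. A span is a distance on the genome and not the length of the transcript, which was not used.

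Genes that work beside this machinery were counted from lists of functions, drawn up with earlier results of these data known. Of the partners of the channel, 5 of 12 listed genes were detected, led by rrbp1.L, a ribosome receptor of the ER (39.9 and 175 FPKM in replicates 1 and 2), tram1.S, which helps nascent chains into the membrane (31.0 and 88.6 FPKM), and ckap4.L, which shapes ER sheets (30.6 and 12.1 FPKM). Other subunits or partners of OST had 1 of 6 genes detected, the sugar-binding mlec (4.79 and 53.9 FPKM). The membrane insertase EMC had 1 of 10, emc2.L (6.92 and 2.33 FPKM), and the route for tail-anchored proteins 1 of 8, ubl4a.L (112 and 31.1 FPKM). Of 4 genes for factors that bind nascent chains at the ribosome, btf3.L (1.82 and 87.6 FPKM) and hspa14.S (4.38 and 40.7 FPKM) were detected. Inside the ER, 6 of 24 genes for folding factors were detected, led by calr.L (135 and 259 FPKM), canx.L (84.8 and 299 FPKM) and ppib.L (24.6 and 338 FPKM). For ER-associated degradation it was 7 of 19 genes, led by ubxn4.S, syvn1.L and ube2j2.S, all higher in replicate 2. By gene names, the share detected in these 7 lists ran between 5.88% and 33.3%, beside 4.39% of all gene names and 8.48% of named genes. EMC (5.88%) and the route for tail-anchored proteins (7.14%) lay below the share of named genes. The 28.6% of the translocon and signal recognition names lay within the range of the 7 lists, TRAP (71.4%) and the Sec61 channel (60.0%) lay above that range, and the SRP receptor, Sec62 and Sec63 below it. With 3 to 13 names per complex these shares are coarse, and no test was made between lists.

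**Figure D4:**
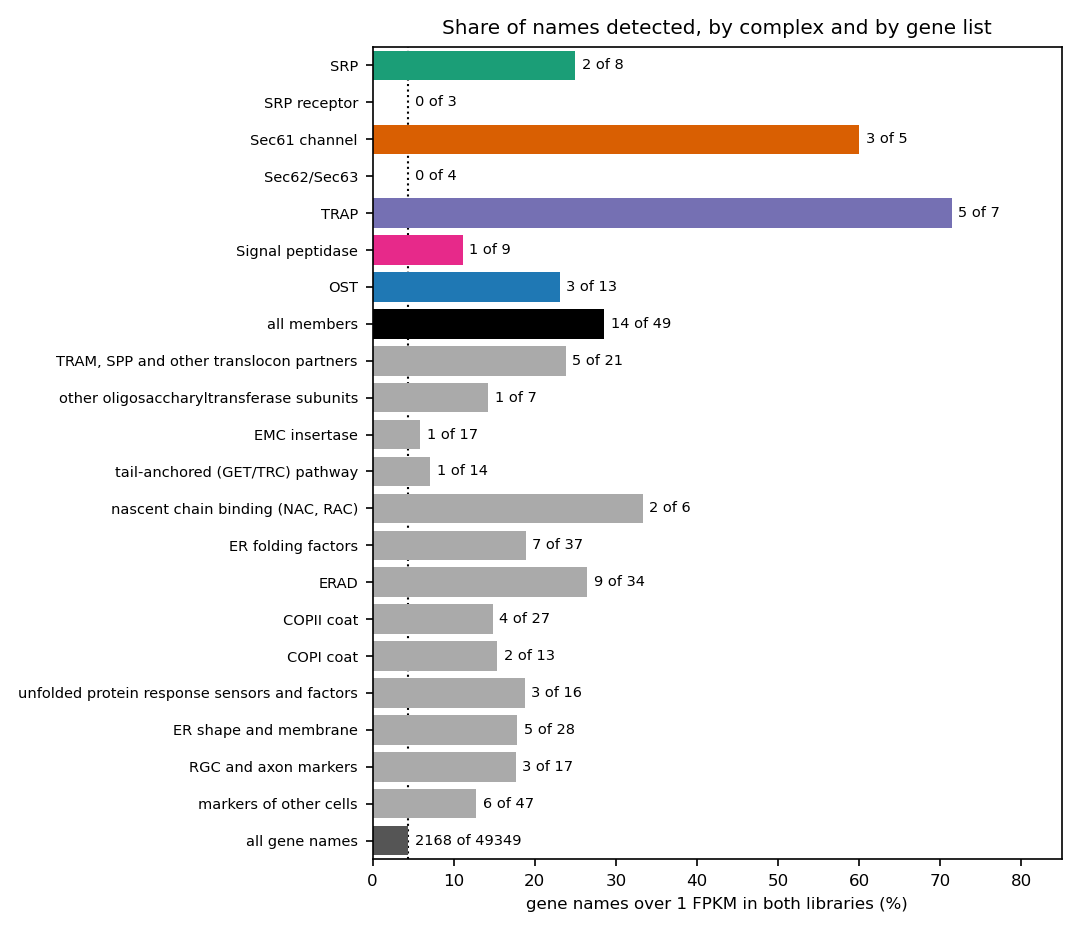
Share of gene names over 1 FPKM in both libraries, in percent, for each complex of the group (colored), all 49 names (black), other gene lists (gray) and all gene names (dark gray), with the number of names beside each bar; the dotted line marks the 4.39% of all gene names. TRAP (5 of 7) and the Sec61 channel (3 of 5) have the longest bars, and the SRP receptor and Sec62/Sec63 have none.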

How the data were processed

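HISAT2 2.1.0 was used by the authors for mapping (X. laevis v9.2) and Cufflinks 2.1.1 for the FPKM values, which they deposited per library, without pooling; the gene annotation is not given in the sources used here. The cDNA had been amplified by PCR, which adds error that depth does not show.

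Where a gene name stood on several rows, their FPKM was added up. Members were matched by symbol after removal of the L or S ending. Levels were compared on log2(FPKM + 1). The limit of 1 FPKM in both libraries follows the study. All detected members are named, and the 3 highest names of each other list. The members and lists were chosen with earlier results of these data known. With a single condition no test was made; counts are set beside those of all names. Functions were tested on simulated data. Gene numbers were looked up in RefSeq for Xenopus_laevis_v10.1, without its coordinates. Protein and promoter sequences were not used here. Python 3.11.15, numpy 2.4.6, pandas 2.3.3 and matplotlib 3.10.9 were used. As alternatives, the limit for detection, the names used as background, the treatment of rows and homeologs and the pseudocount were changed, and each replicate was left out.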

Additional observations from a re-analysis of the deposited data

How the results depend on the processing

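The count of detected names, 14, was 10 to 15 under the other limits and 14 in either library alone, and the count of detected genes, 11, was 8 to 11. With limits of 0, 5 and 10 FPKM, 30.6%, 22.4% and 20.4% of the members' names passed, against 5.44%, 3.23% and 2.65% of all names. Without rows of several symbols it was 29.0%, against 3.68%, and with named genes only 28.6%, against 8.48%. In single libraries it was 28.6% to 28.6%, against 4.71% to 4.93%. The median of the averaged member values, 51.7 FPKM, was 40.2 to 67.9 FPKM in single libraries and 28.2 FPKM over all names with a value, where the median of all names, 31.3 FPKM, was 23.2 to 23.4 FPKM and 10.1 FPKM. The average share of summed FPKM, 0.247%, was 0.206% to 0.287% in single libraries and 0.330% without the 10 highest names of the table. The median difference between libraries was 0.94 for members and 1.05 for all names with a pseudocount of 0.1, and 0.66 and 0.68 with one of 10. The homeolog pairs over 10-fold apart, 2, were 2 to 3 in single libraries, 3 with a pseudocount of 0.1 and 0 with one of 10, which shrinks every ratio by construction. No paired analysis was possible because there is a single group. Values under a few FPKM, such as those of ssr1.L, rest on few reads, by the estimated relative depth most of all in replicate 2.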

Other observations

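Genes for later steps of the secretory route were counted in the same way. By gene names, the share detected was 14.8% for the COPII coat, 15.4% for the COPI coat, 17.9% for ER shape and 18.8% for the unfolded protein response, beside 4.39% of all gene names and 8.48% of named genes. No test was made of these shares. Of 16 genes for the COPII coat, which buds vesicles from the ER, 4 were detected. They were sar1a.S, the GTPase that starts the coat, with 637 and 379 FPKM in replicates 1 and 2, sec24a.L with 31.6 and 12.3 FPKM, sec23b.L with 22.7 and 5.86 FPKM and sec16a.L, named after its value was seen, with 1.26 and 15.7 FPKM. Of 8 genes for the COPI coat, copz1.L (79.0 and 33.0 FPKM) and arcn1.L (2.02 and 6.26 FPKM) were detected. Among 17 genes that shape the ER or its contacts, rtn4.S had 1268 and 1167 FPKM, rtn4.L 240 and 93.1 FPKM and vapb.L 14.97 and 237 FPKM, and 4 genes were detected in all.

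Of 11 genes for sensors and factors of the unfolded protein response, xbp1 and creb3l2 were detected. For xbp1, whose mRNA is spliced at the ER membrane when the response is on, the L name had 46.3 and 301 FPKM and the S name 52.4 and 209 FPKM. FPKM per gene does not tell the spliced from the unspliced form. The sensor genes atf6, ern1 and eif2ak3 were listed at 0 in both libraries.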
